A study of Mus musculus with 8 samples.

Results

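A set of 9 genes of the basement membrane was followed over 8 mouse arrays: the laminin chains Lama3, Lama4, Lama5, Lamb1, Lamb3 and Lamc1, the collagen IV chain Col4a1, the linker Nid1 and the proteoglycan Hspg2. They were chosen by symbol, as probe sets that the platform annotation pairs with exactly 1 of these symbols, and all 9 of 9 were found, each with 1 probe set, among 19938 genes in all. MBA-15 is a stromal mouse line of pre-osteoblastic character, and DA3 is a mouse mammary adenocarcinoma line. Each was grown alone or with the other, the sample descriptions give 24 h where the growth protocol allows a longer time, and magnetic particles against EpCAM parted the cells into bound DA3 and unbound MBA-15 cells. The 4 groups are co-cultured MBA-15, MBA-15 alone as labelled, co-cultured DA3 and monocultured DA3 (DA3 alone in the labels and plots), with 2 arrays each, and no agent, allele or treatment separates them other than line and culture. Each group rests on 1 line, so the values describe these lines only. The labels do not state whether a group had separate cultures behind its arrays. The p-values therefore reflect only how far these samples scatter, possibly for technical reasons, and the number of arrays limits the precision.

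A basement membrane is the thin sheet of matrix that epithelium, muscle, fat and vessels rest on. Its laminins are trimers of an alpha, a beta and a gamma chain: the alpha chain sets most of the binding to integrins, and the trimers join into a network at the cell surface. Collagen IV forms another network, Nid1 links it to laminin, and Hspg2 (perlecan) adds heparan sulphate chains that hold growth factors. Lama3 and Lamb3 are chains of the laminin that anchors skin and mammary epithelium to the matrix, Lama5 with Lamb1 and Lamc1 forms the common laminin of epithelium, and Lama4 with the same partners is the laminin of vessels and mesenchyme.

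The pair labelled MBA-15 alone carried stromal markers, as its label says, and epithelial markers, against it. Epcam, the gene of the antigen used for the separation, had log2 levels of 8.45 and 9.25 on these arrays, against 5.58 and 5.19 in co-cultured MBA-15, 9.30 and 9.38 in co-cultured DA3, and 9.57 and 9.46 in monocultured DA3. All 12 epithelial markers of a fixed list (among them Cdh1, Krt8, Krt18 and Cldn7) lay on both of these arrays above both co-cultured MBA-15 arrays and below both monocultured DA3 arrays. Their mean was 8.17 and 8.63 on the pair labelled MBA-15 alone, 5.21 and 5.09 in co-cultured MBA-15, and 9.35 and 9.29 in monocultured DA3. Of 12 stromal markers, 10 were over 1 log2 unit higher in co-cultured MBA-15 than in monocultured DA3, and 10 were higher on the pair labelled MBA-15 alone than in monocultured DA3 at an adjusted p under 0.05 in limma. The list mean was 8.78 and 8.38 in co-cultured MBA-15, 8.08 and 8.27 on the pair labelled MBA-15 alone, 6.47 and 5.75 in co-cultured DA3, and 5.22 and 5.38 in monocultured DA3. All 6 endothelial markers, of a cell type that makes much Lama4 and Col4a1, lay below the array median on all 8 arrays. The sources used here do not say what the word mix in the descriptions of the 4 arrays labelled alone refers to. For these reasons the lines are compared first through co-cultured MBA-15 and monocultured DA3, whose difference in means uses no array labelled MBA-15 alone. The spread behind the SE, intervals and p-values still came from all 8 arrays, that pair included.

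Promoter windows of 6 of the 9 genes were used. None was at hand for Lama4 and Lamc1, and Lama3 was left out and not scanned. The windows shown are those of Lama5 and Lamb3, which were higher in DA3, and of Nid1 and Col4a1, which were higher in MBA-15. Each runs from 250 bases before to 50 bases after the start of transcription (RefSeq, GRCm38.p6), 5′ to 3′ on the strand of the gene, and capitals mark the E-box CAGGTG or its complement CACCTG, the letters bound by the repressors Zeb1 and Snai1 of epithelial genes. They lie at chr2:180225810-180226109 on the minus strand for Lama5, chr1:193301993-193302292 on the plus strand for the downstream of the 2 listed starts of Lamb3, chr13:13437352-13437651 on the plus strand for Nid1 and chr8:11312777-11313076 on the minus strand for Col4a1.
Lama5: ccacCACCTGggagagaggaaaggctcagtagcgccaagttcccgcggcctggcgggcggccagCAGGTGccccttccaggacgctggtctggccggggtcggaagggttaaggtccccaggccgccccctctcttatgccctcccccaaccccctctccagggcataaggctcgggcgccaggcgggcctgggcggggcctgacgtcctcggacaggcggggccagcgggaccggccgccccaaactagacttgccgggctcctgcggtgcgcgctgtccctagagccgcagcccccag
Lamb3: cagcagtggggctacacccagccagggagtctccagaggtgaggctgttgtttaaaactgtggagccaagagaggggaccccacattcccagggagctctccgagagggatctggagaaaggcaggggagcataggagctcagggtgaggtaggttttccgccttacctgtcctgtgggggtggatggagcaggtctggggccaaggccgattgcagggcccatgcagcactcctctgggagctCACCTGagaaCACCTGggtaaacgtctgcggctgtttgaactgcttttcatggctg
Nid1: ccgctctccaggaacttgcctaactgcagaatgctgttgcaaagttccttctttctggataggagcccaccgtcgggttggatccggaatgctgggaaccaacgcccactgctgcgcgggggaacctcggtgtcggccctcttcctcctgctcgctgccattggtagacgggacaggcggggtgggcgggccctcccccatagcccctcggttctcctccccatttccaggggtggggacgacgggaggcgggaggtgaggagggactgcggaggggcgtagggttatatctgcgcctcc
Col4a1: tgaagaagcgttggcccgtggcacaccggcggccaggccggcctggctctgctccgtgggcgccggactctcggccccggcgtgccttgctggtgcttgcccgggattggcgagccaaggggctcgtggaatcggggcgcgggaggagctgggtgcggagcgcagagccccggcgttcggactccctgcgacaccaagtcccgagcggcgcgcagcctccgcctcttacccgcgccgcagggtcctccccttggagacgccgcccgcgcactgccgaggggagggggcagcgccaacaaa

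The Lama5 window held 2 such E-boxes, with first bases at -246 and -186 from the start site, and the Lamb3 window held 2, at -6 and 4. The windows of Nid1, Col4a1, Lamb1 and Hspg2 and the upstream window of Lamb3 held 0. Of 32851 windows of 300 bases in the same table, 20.2% held at least 1 and 2.88% held at least 2, counted on both strands. The AP-1 letters TGANTCA stood in 0 of the windows of these 6 genes and in 7.81% of all windows. The letters of the GC box, GGGCGG or CCGCCC, occurred 4 times in Lama5, 5 times in Hspg2, 2 times in Lamb1, 1 time each in Nid1 and Col4a1 and 0 times in either window of Lamb3, and 35.7% of all windows held them. Col4a1 and Col4a2 are read in opposite directions from start sites 21 bases apart, so their windows share 78 bases. A match of letters is a description of the window, not a measured binding site.

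The first comparison set co-cultured MBA-15 against monocultured DA3. These groups differ in line and in culture at once, and the parts of both in a difference cannot be told apart here. Lama5 and Lamb3 were lower in MBA-15, and Nid1 and Col4a1 were higher, each by more than 2 log2 units. Lama3 was lower by about 1 unit, a call that several other settings lost. Lamb1, Lamc1 and Hspg2, whose products serve most basement membranes, did not pass the test. In all, 2 of 9 genes were higher and 3 lower at an adjusted p under 0.05 in limma, beside 6.08% and 6.47% of all genes (12.6% in either direction). With the arrays centred on their medians the split of all calls moved from 1213 higher and 1290 lower to 1070 higher and 1722 lower. The median difference of the 9 genes was 0.33, and that of all genes was 0.00.

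Among the alpha chains, Lama5 had log2 levels of 5.89 and 5.22 in co-cultured MBA-15 and of 10.06 and 10.02 in monocultured DA3. The groups were far apart, with a difference of -4.49 ± 0.37 (SE, 95% interval -5.37 to -3.60, adjusted p = 0.000727, limma with Benjamini-Hochberg adjustment), or 22.4-fold. It ranked 27 by size among all genes. Lama3, the alpha chain of the epithelial anchor, was at 4.35 and 4.85 in co-cultured MBA-15 and at 5.86 and 5.38 in monocultured DA3, so its groups did not overlap but lay close together. Its difference was -1.02 ± 0.22 (adjusted p = 0.0298, limma), and its adjusted p was 0.0532 in limma without the pair labelled MBA-15 alone and 0.0589 when assay number entered as a block. Lama4, the mesenchymal alpha chain, was at 4.85 and 4.74 against 3.51 and 3.61. Both monocultured DA3 values lay below the lowest array median of 4.48, so the difference of 1.23 ± 0.33 (adjusted p = 0.0609, limma) is at best a lower bound. The same holds for every difference below whose lower group has a mean under that median. Group means close above it, such as 4.79 for Lamb3 in co-cultured MBA-15 and 4.60 for Col4a1 in monocultured DA3, may understate a difference too. The adjusted p for Lama4 was 0.00374 in limma without the pair labelled MBA-15 alone, whose own Lama4 levels of 4.14 and 5.27 lie far apart.

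Lamb3, the beta chain of the epithelial anchor, was at 4.76 and 4.81 in co-cultured MBA-15 and at 7.61 and 7.18 in monocultured DA3. It differed by -2.61 ± 0.25 (adjusted p = 0.00139, limma), or 6.09-fold. Lamb1, the beta chain shared by most laminins, was at 9.41 and 8.79 against 9.87 and 9.83, a difference of -0.75 with a 95% interval from -1.44 to -0.06 (adjusted p = 0.166, limma). Lamc1, the gamma chain of the same laminins, was at 9.50 and 9.68 against 8.55 and 9.11, a difference of 0.76 with an interval from -0.02 to 1.55 (adjusted p = 0.22, limma). Both groups of Lamb1 and of Lamc1 stood above at least 93% of all genes on each of these arrays.

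Nid1 was at 9.23 and 9.49 in co-cultured MBA-15 and at 4.12 and 4.51 in monocultured DA3. Its difference of 5.04 ± 0.49 (adjusted p = 0.00128, limma), or 32.9-fold, ranked 8 by size among all genes, and since the DA3 mean of 4.32 lies below the lowest array median it is at best a lower bound. Col4a1 was at 7.49 and 7.16 against 4.49 and 4.71, a difference of 2.73 ± 0.27 (adjusted p = 0.00149, limma), or 6.62-fold. Col4a2, its partner in the collagen IV trimer and its neighbour across the shared start region shown above, was at 7.15 and 6.67 against 4.78 and 4.73, a difference of 2.16 ± 0.34 (adjusted p = 0.00846, limma). Hspg2 was at 8.41 and 7.06 in co-cultured MBA-15 and at 7.18 and 7.64 in monocultured DA3. Its groups overlapped, its difference was 0.33 with an interval from -1.08 to 1.74, and without co-cultured MBA-15 array 1 the difference was -0.34.

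**Figure D1:**
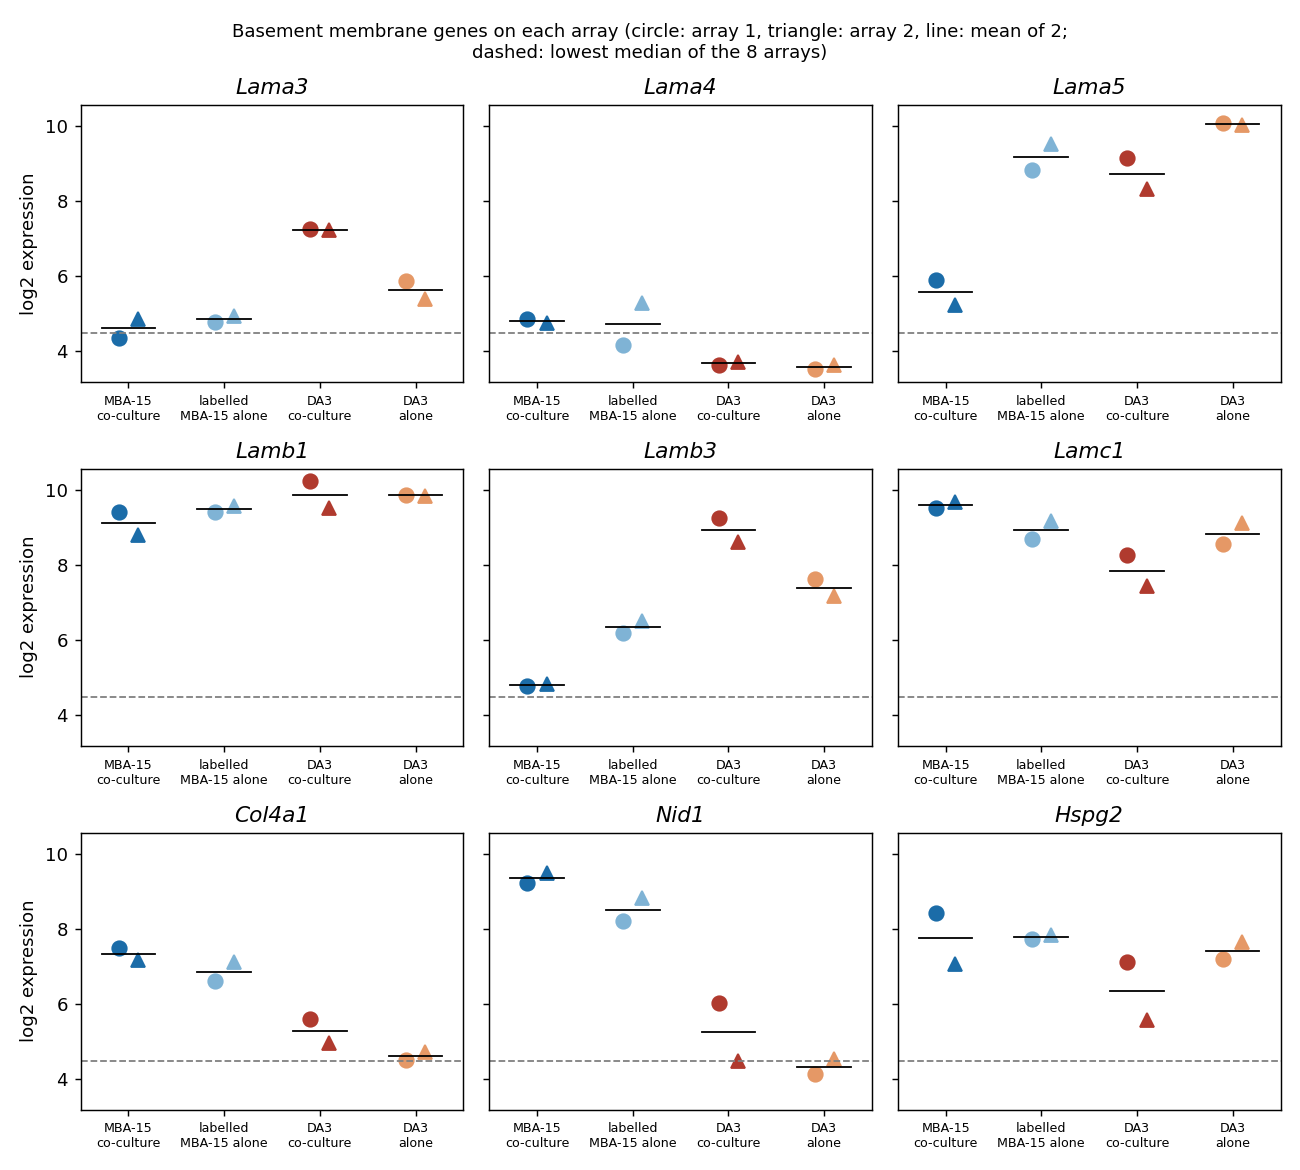
Log2 expression of the 9 genes on each of the 8 arrays, by group, with circles for array 1, triangles for array 2, a line at the mean of each group and a dashed line at the lowest array median of 4.48. Lama5 and Lamb3 are lowest in MBA-15 co-culture, Nid1 and Col4a1 are high on all 4 arrays named for MBA-15, and Lama3 and Lamb3 are highest in DA3 co-culture.

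The 2 fractions of the co-culture were compared next. Of the 9 genes, 3 were higher in the MBA-15 fraction (Nid1, Col4a1 and Lamc1) and 3 were higher in the DA3 fraction (Lama3, Lama5 and Lamb3), beside 8.28% and 4.48% of all genes and 12.8% in either direction. The difference was -4.13 ± 0.25 for Lamb3 (17.5-fold, rank 18 by size), -3.17 ± 0.37 for Lama5 and -2.63 ± 0.22 for Lama3, with adjusted p = 0.000471, 0.00335 and 0.0011 in limma. Nid1 differed by 4.12 ± 0.49 (adjusted p = 0.00341, limma) and Col4a1 by 2.05 ± 0.27 (adjusted p = 0.00524, limma). Lamc1 differed by 1.76 ± 0.33 (adjusted p = 0.0177, limma), from 8.25 and 7.42 in co-cultured DA3 to 9.50 and 9.68 in co-cultured MBA-15. The Lamc1 call was lost without either co-cultured MBA-15 array or without co-cultured DA3 array 2, with adjusted p from 0.0523 to 0.0805 in limma. This comparison shares the co-cultured MBA-15 arrays with the previous one. Hspg2 (1.39), Lama4 (1.13, at best a lower bound) and Lamb1 (-0.77) did not pass.

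With both lines as labelled alone, Nid1 (4.18 ± 0.49, at best a lower bound, adjusted p = 0.00748, limma) and Col4a1 (2.26 ± 0.27, adjusted p = 0.00864, limma) were higher on the pair labelled MBA-15 alone, 2 of 9 genes beside 2.7% of all genes in that direction and 2.89% in both. Without monocultured DA3 array 1 or without array 2, 0 of the 9 genes passed. Lama5, at -4.49 in the first comparison, differed by -0.88 ± 0.37 and Lamb3 by -1.06 ± 0.25 between these groups (adjusted p = 0.429 and 0.112, limma). Epcam differed in the same direction, by -0.21 within assay 3 and by -1.13 within assay 4.

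The next question was what growth with MBA-15 changes in the DA3 fraction. Lama3 and Lamb3, chains of the epithelial anchor laminin, had higher values in co-culture, by 1.61 and 1.53 log2 units. Lama5, Lamc1 and Hspg2 had lower values, by about 1 unit or more. None of these differences passed: limma called 0 of the 9 genes, beside 0.0401% of all genes (8 of 19938). At an unadjusted p under 0.05 there were 5 of 9 genes, beside 14.9% of all genes. The 2 groups did not overlap for 7 of the 9 genes, beside 53.8% of all genes.

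Lama3 was at 7.24 and 7.21 in co-cultured DA3 and at 5.86 and 5.38 in monocultured DA3, so the co-culture arrays lay together and above both others. The difference was 1.61 ± 0.22 (95% interval 1.07 to 2.14, adjusted p = 0.0906, limma), or 3.04-fold, and it was 1.86 between the single arrays of assay number 3. In limma its adjusted p was 0.0434 with dim genes left out and 0.0205 with a prior that follows intensity. Lamb3 was at 9.24 and 8.60 against 7.61 and 7.18, with a difference of 1.53 ± 0.25 (interval 0.92 to 2.14, adjusted p = 0.134, limma), or 2.88-fold, and 2.06 within assay 3.

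Lama5 was at 9.15 and 8.30 in co-cultured DA3 and at 10.06 and 10.02 in monocultured DA3. Its difference was -1.32 ± 0.37 (interval -2.20 to -0.43, adjusted p = 0.234, limma), and -0.87 within assay 3. Lamc1 had a difference of -0.99 ± 0.33 (adjusted p = 0.276, limma) and Hspg2 of -1.06 ± 0.59 (adjusted p = 0.431, limma). For Lama5, Lamc1 and Hspg2 array 2 of co-cultured DA3 was the lowest of the 4 DA3 arrays, with Hspg2 at 5.57 there against 7.12 on array 1. Array 2 was the only array of assay number 5, so assay and array cannot be told apart for it. Without that array the difference was -0.29 for Hspg2 and -0.58 for Lamc1, and without array 1 it was -1.84 and -1.40. With the assay block, which in effect leaves array 2 out of the estimate, it was -0.16 for Hspg2. Lamb1, at 10.23 and 9.51 against 9.87 and 9.83, differed by 0.02 with an interval from -0.67 to 0.70.

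Nid1 and Col4a1, the 2 genes higher in MBA-15, stayed far below their MBA-15 levels in co-cultured DA3. Nid1 was at 6.00 and 4.47, against 4.12 and 4.51 in monocultured DA3, so array 1 stood above and array 2 within the control levels. The Nid1 difference of 0.92 ± 0.49 (adjusted p = 0.416, limma) was 0.15 without array 1 and 1.69 without array 2. Col4a1 was at 5.60 and 4.95 against 4.49 and 4.71, a difference of 0.67 ± 0.27 (adjusted p = 0.326, limma) that was 0.35 without array 1. The stromal markers lay the same way, with a list mean of 6.47 on array 1 and 5.75 on array 2. On a linear scale from the mean of co-cultured MBA-15 (0%) to the mean of monocultured DA3 (100%), the 10 stromal markers over 1 log2 unit apart had medians of 91.3% and 96.3% on the 2 co-cultured DA3 arrays. Nid1 stood at 93.1% and 99.7% and Col4a1 at 82.5% and 95.2%. The part of MBA-15 RNA in these values was not tested. Lama3 and Lamb3 were lower in co-cultured MBA-15 than on any array named for DA3.

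**Figure D2:**
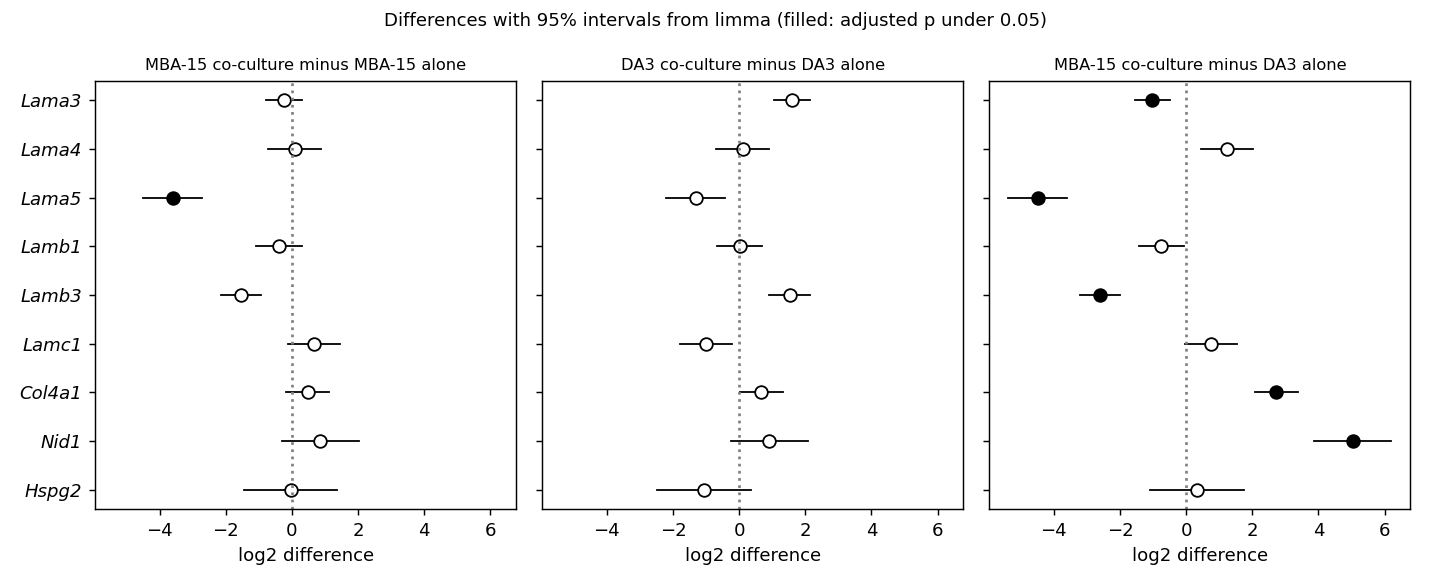
Log2 differences of the 9 genes with 95% intervals from limma in 3 comparisons, with filled circles for an adjusted p under 0.05. Lama5 is the 1 filled gene for co-cultured MBA-15 against the pair labelled alone, 0 genes are filled for DA3, and 5 are filled for co-cultured MBA-15 against monocultured DA3.

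Co-cultured MBA-15 was also set against the pair labelled MBA-15 alone. That pair carried epithelial as well as stromal markers, so a change in the stromal line cannot be read from a difference by itself. Lama5 differed by -3.61 ± 0.37 log2 units (95% interval -4.50 to -2.72, adjusted p = 0.011, limma), or 12.2-fold. It was at 5.89 and 5.22 in co-cultured MBA-15 against 8.81 and 9.52. It was the 1 gene of 9 to pass, beside 0.848% of all genes (0.772% in the lower direction), and it ranked 9 by size. The difference was -4.30 within assay 3 and -2.92 within assay 4, and blocking on assay number gave an adjusted p of 0.0245 in limma. The call was lost without co-cultured MBA-15 array 2 (adjusted p = 0.0855, limma) or without array 2 labelled MBA-15 alone (adjusted p = 0.0921, limma). It was also lost in a fit of only these 4 arrays (adjusted p = 0.0621, limma). Epcam differed by -4.06 within assay 3 and by -2.87 within assay 4. All 12 epithelial markers were lower in the same comparison without overlap, 11 of them at an adjusted p under 0.05 in limma, beside 0.772% of all genes.

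Lamb3 was at 4.76 and 4.81 in co-culture and at 6.18 and 6.49 on the pair labelled MBA-15 alone, with no overlap. Its difference of -1.55 ± 0.25 missed the threshold (adjusted p = 0.0599, limma). It passed with dim genes left out (adjusted p = 0.0293, limma), with arrays centred on their medians (adjusted p = 0.0436, limma) and with a prior that follows intensity (adjusted p = 0.0396, limma). It also passed without either co-cultured DA3 array (adjusted p = 0.0345, limma, in both cases). Lama3 differed by -0.25 with an interval from -0.78 to 0.29. Nid1 (0.86), Lamc1 (0.67) and Col4a1 (0.47) had higher values on both co-culture arrays than on both arrays labelled MBA-15 alone, and none passed (adjusted p from 0.606 to 0.679, limma). Non-overlap upward held for 3 of 9 genes, beside 22.3% of all genes, and downward for 2 of 9, Lama5 and Lamb3, beside 16.1%. Lama4 (0.08), Hspg2 (-0.04) and Lamb1 (-0.39) overlapped between the groups.

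On the linear scale of 0% at co-cultured MBA-15 and 100% at monocultured DA3, the 12 epithelial markers stood between 24.6% and 56.8% on array 1 labelled MBA-15 alone and between 46.5% and 81.9% on array 2. Lama5 stood at 40.0% and 68.0%, within both ranges. Lamb3 stood at 31.6%, within the range, and at 43.9%, just below it. Lama3 stood at 9.7% and 23.9%, below both ranges. On the co-cultured DA3 arrays the markers ranged from 25.8% to 110% and from 59.7% to 149%. Lama3 stood there at 501% and 489% and Lamb3 at 406% and 253%, above both ranges, and Lama5 at 51.6%, within, and 26.6%, below. The ends of the scale differ by only -1.02 log2 units for Lama3, against -2.10 to -5.07 for the markers. A given fold change thus reads as a larger percentage for Lama3. The rises themselves were 3.04-fold for Lama3 and 2.88-fold for Lamb3, and neither passed. The part of epithelial RNA in the Lama5 difference between co-cultured MBA-15 and the pair labelled MBA-15 alone was not tested. In such bulk samples fewer cells of a type and less RNA per cell cannot be told apart.

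**Figure D3:**
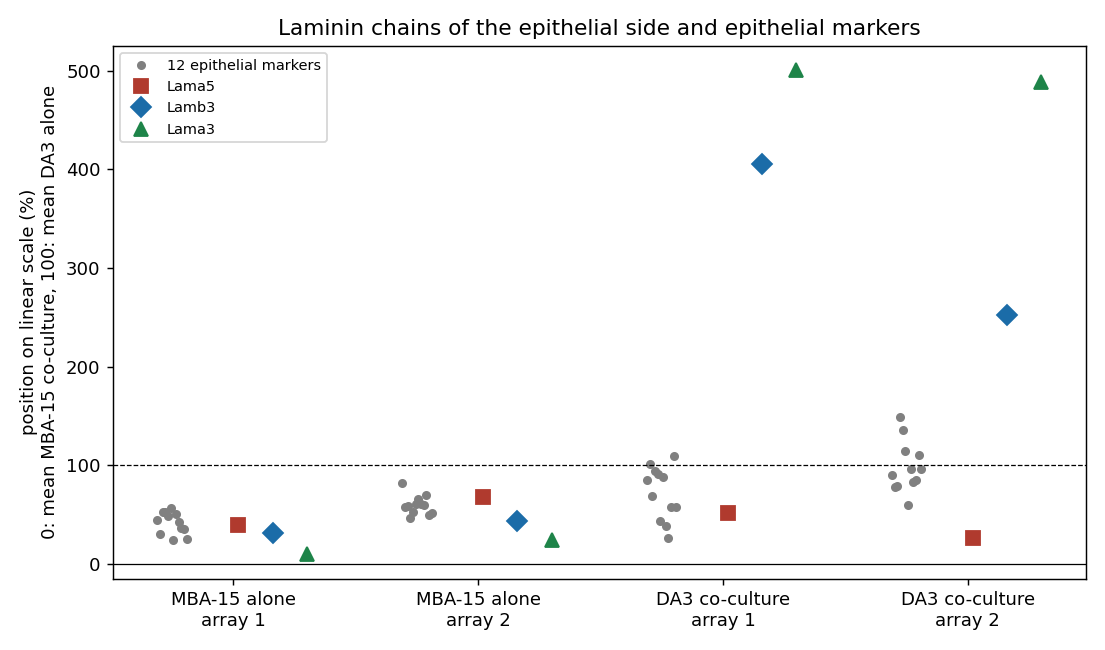
Position of Lama5, Lamb3, Lama3 and 12 epithelial markers (grey) on each array of the pair labelled MBA-15 alone and of co-cultured DA3, in percent on a linear scale where co-cultured MBA-15 averages 0% and monocultured DA3 averages 100% (dashed). Lama5 lies among the markers on both arrays of the pair labelled alone, and Lamb3 and Lama3 lie above all markers on both DA3 co-culture arrays, at 253% and more. The ends of the scale differ by -1.02 log2 units for Lama3 and by -2.10 to -5.07 for the markers, so a given fold change reads larger for Lama3.

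Whether co-culture changed the genes differently in the 2 lines was tested as the difference of the changes. Of the 9 genes 0 passed in limma, beside 0.0602% of all genes, and 4 had an unadjusted p under 0.05, beside 6.32%. Lamb3 came nearest, with -1.55 for co-cultured MBA-15 against the pair labelled MBA-15 alone and 1.53 for co-cultured against monocultured DA3. Its difference was -3.08 ± 0.36 (95% interval -3.94 to -2.21, adjusted p = 0.0767, limma), rank 24 by size. Its adjusted p was 0.025 with dim genes left out and 0.0264 with a prior that follows intensity, both in limma. The difference was -1.85 ± 0.32 for Lama3, -2.29 ± 0.52 for Lama5 and 1.66 ± 0.46 for Lamc1 (adjusted p = 0.194, 0.377 and 0.52, limma). All 4 rest on the pair labelled MBA-15 alone, which carried epithelial markers. In this comparison all 12 epithelial markers had a negative difference at an unadjusted p under 0.05 in limma, with a list median of -3.09. The part of epithelial RNA in the 4 differences was not tested.

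Of 28 other basement membrane genes measured, 5 were lower and 2 higher in co-cultured MBA-15 than in monocultured DA3, beside 6.47% and 6.08% of all genes. Lower were Npnt (-3.82 ± 0.33), which encodes the integrin ligand nephronectin, the calcium-binding matrix gene Smoc1 (-1.80), Tinagl1 (-1.67), Col18a1 (-1.51), the source of endostatin, and the netrin gene Ntn4 (-0.75). Higher were Smoc2 (2.61 ± 0.45), a relative of Smoc1, and Col4a2. The lower group of Smoc1, Smoc2, Col18a1 and Ntn4 had a mean under 4.48, which makes each difference at best a lower bound in size. The median difference of the list was 0.03, and that of all genes was 0.00. Npnt was lower in co-cultured MBA-15 than on the pair labelled MBA-15 alone by 2.76 ± 0.33 (adjusted p = 0.0212, limma). It was at 4.62 and 4.48 against 6.92 and 7.70, and it was the 1 of 28 to pass there. In monocultured DA3 it stood at 8.41 and 8.31, and the part of epithelial RNA in this difference was not tested. A fit of only the groups compared lost the call (adjusted p = 0.0716, limma). The Npnt call was lost without any 1 of co-cultured MBA-15 array 1 or 2, the second of the pair labelled MBA-15 alone, or monocultured DA3 array 1 or 2 (adjusted p from 0.0699 to 0.152, limma). Of the other laminin chains, Lama1 and Lama2 lay below the array median on all 8 arrays, and Lamb2, the beta chain of muscle and kidney, ranged from 6.82 to 7.89 with 0 calls in either co-culture comparison. In co-cultured DA3 0 of the 28 passed.

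Among 17 receptors and adhesion genes, 4 were lower and 1 higher in co-cultured MBA-15 than in monocultured DA3, beside 6.47% and 6.08% of all genes. The list median was -0.44, against 0.00 over all genes. Itgb4, the beta subunit of the hemidesmosomal integrin that binds laminin with the Lama3 chain, was at 4.67 and 4.44 against 7.78 and 7.55 (-3.10 ± 0.33, adjusted p = 0.0019, limma). The laminin-binding integrin subunits Itga7 (-2.38, at best a lower bound in size) and Itga3 (-1.88) and the syndecan Sdc1 (-1.08) were lower too, the collagen receptor kinase Ddr1 had a difference of -1.51 that did not pass (adjusted p = 0.0566, limma), and the collagen-binding subunit Itga1 was higher (0.73) at levels below the array median throughout. In co-cultured DA3 Itgb4 was at 8.51 and 7.57, overlapping the 7.78 and 7.55 of monocultured DA3 (0.38 ± 0.33, adjusted p = 0.587, limma). Itga2, which binds collagen IV as well as fibrillar collagens, rose in co-cultured DA3 by 3.89 ± 0.36 (adjusted p = 0.0468, limma), the 1 of 17 to pass. It was at 8.49 and 7.58 there and at 4.26 and 4.02 in monocultured DA3, under the lowest array median, so the rise is at best a lower bound. Leaving out any 1 of the 8 arrays lost that call (adjusted p from 0.0672 to 0.433, limma).

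Of 13 measured genes of collagen IV maturation, 4 were higher and 1 lower in co-cultured MBA-15 than in monocultured DA3, beside 6.08% and 6.47% of all genes. The list median was 0.06. Higher were the prolyl hydroxylase genes P4ha1 (2.09 ± 0.14), P3h1 (1.66 ± 0.13) and P4ha3 (1.17 ± 0.22, at best a lower bound) and the collagen chaperone Serpinh1 (1.39 ± 0.24), and the collagen galactosyltransferase gene Colgalt1 was lower (-0.73 ± 0.16). In both co-culture comparisons 0 of 13 passed.

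The genes whose pattern over the 8 arrays was nearest to each of the 9 were named by the root mean square difference of log2 profiles after centring, given here with Pearson's r over 8 arrays that share 2 lines. Nearest to Lama5 were Npnt (0.34, r = 0.99) and Mab21l4 (0.36, r = 0.98). Nearest to Lamb3 were Eepd1 (0.36, r = 0.99) and Dynap (0.39, r = 0.97), and nearest to Lama3 were Card14 (0.29, r = 0.97) and the kallikrein protease gene Klk8 (0.32, r = 0.98). The stromal side paired Nid1 with the guidance ligand Slit2 (0.20) and the growth factor receptor Pdgfra (0.34), Col4a1 with Cpne2 (0.18) and Chst15 (0.18), and Lama4 with the coagulation factor gene F5 (0.14) and Cemip (0.16). Lamc1 lay nearest to Sbf2 (0.09) and Lyst (0.12), Lamb1 to Srrt (0.07) and Pelp1 (0.09), and Hspg2 to Asap1 (0.21) and Nfic (0.23).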

How the data were processed

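RNA of 8 cultures or fractions was hybridised to Affymetrix MoGene ST arrays. The authors deposited log2 expression values for each probe set, computed with RMA and Partek 6.5 per the submitters' processing notes, and all 8 columns were used. Of 35556 probe sets, 21789 had exactly 1 symbol and 1621 had several. The probe set with the highest mean was kept per gene, giving 19938 genes, dim ones included. Array medians lay between 4.48 and 4.64. Group and replicate number came from the titles. Assay number 4 held array 1 of co-cultured MBA-15, of the pair labelled MBA-15 alone and of monocultured DA3. Assay number 3 held array 2 of these groups and co-cultured DA3 array 1, and assay number 5 held only co-cultured DA3 array 2. A block on assay number in effect leaves that last array out of every estimate. Contrasts of 4 group means over all 8 arrays were fitted with limma 3.58.1 in R 4.3.3 (4 residual and 2.6 prior degrees of freedom), two-sided, with Benjamini-Hochberg adjustment over all genes at 0.05, and the fit was tested on simulated data. An exact permutation test of 2 against 2 arrays cannot go below p = 0.333. The 9 genes and the lists were chosen with earlier results of these data known. Besides the 9 genes, the text names Epcam, always the partner chains Lama1, Lama2, Lamb2 and Col4a2, the genes of each list that passed in a co-culture comparison, the 4 of each list with the largest difference between the lines, and the 2 genes nearest in pattern to each of the 9. Tinagl1, Col18a1, Ntn4, Sdc1, Itga1 and Colgalt1 were picked by hand after seeing that they passed. Alternatives covered blocks, probe set rule, dim filter, scaling, prior, groups fitted and each array left out.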

Additional observations from a re-analysis of the deposited data

How the results depend on the processing

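The count of the 9 genes that passed was, for co-cultured MBA-15 set against the pair labelled MBA-15 alone, 1 as reported, 2 with dim genes left out (11354 genes tested), with arrays centred on their medians and with the intensity trend, 0 with only the 4 arrays compared, and 0 to 2 with 1 array left out. For DA3 it was 0 as reported and 1 with dim genes left out or the intensity trend, as it was for the difference of the changes. Between the lines as labelled alone it was 2 as reported and 0 to 3 with 1 array left out. Both comparisons of co-cultured MBA-15 with DA3 stayed within 1.5 times their counts under all settings run. The replicate numbers of the titles were not taken as pairs, since not every correlation of the deviations of same-numbered arrays was over 0.1. It was 0.01 within MBA-15, 0.03 within DA3, 0.21 for co-cultured MBA-15 with monocultured DA3, 0.31 for the co-cultured fractions, 0.13 for the arrays labelled alone and -0.41 for the pair labelled MBA-15 alone with co-cultured DA3. With the replicate number as a block, counts of the 9 genes were 1, 0, 4, 6, 2 and 0 in the 6 comparisons, and Lama3 missed the threshold between co-cultured MBA-15 and monocultured DA3 (adjusted p = 0.0504, limma). Over all genes, the 15 higher and 154 lower calls in MBA-15 became 8 and 134 with that block, 43 and 283 with the intensity trend, 0 and 28 with only the 4 arrays, and 0 and 13 without co-cultured MBA-15 array 2. The 2 higher and 6 lower calls in DA3 became 1 and 2 with that block, 0 and 0 with the assay block or only the 4 arrays, 18 and 42 with dim genes left out, and 40 and 80 with the trend. The 12 calls of the difference of the changes became 0 with either block, 29 after quantile normalization, 41 with dim genes left out and 36 with the trend. Without monocultured DA3 array 1, calls against co-cultured MBA-15 were 544 higher and 451 lower, and calls between the lines as labelled alone were 136 and 0. With only the 4 arrays, the 2 co-cultured fractions gave 720 and 403. Small uncalled differences changed sign. In MBA-15, Hspg2 was 0.0123 after quantile normalization and -0.712 to 0.635 with 1 array left out, and Lama4 was -0.48 to 0.65. In DA3, Lama4 was -0.11 with the assay block, -0.00942 after quantile normalization and -0.0137 with centred arrays, and Lamb1 was -0.11 with centred arrays and -0.34 to 0.37 with 1 array left out. Between co-cultured MBA-15 and monocultured DA3, Hspg2 was -0.34 to 1.00 with 1 array left out, and between the lines as labelled alone Lamc1 was -0.18 to 0.37. The causes of these shifts were not tested.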

Other observations

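Among matrix genes beside the laminins, Col4a5, a collagen IV chain of a separate trimer, was at 5.90 and 6.67 in DA3 alone and at 4.52 and 4.43 in DA3 co-culture. The groups did not overlap, and the difference of -1.81 ± 0.49, at best a lower bound in size since the co-culture mean lies under the lowest array median, did not pass (adjusted p = 0.221, limma). Ecm1, which encodes a secreted protein that binds Hspg2, was at 8.73 and 8.39 in DA3 alone and at 9.76 and 9.71 in DA3 co-culture (1.18 ± 0.48, adjusted p = 0.328, limma). Dag1, the laminin receptor dystroglycan, was at 8.07 and 8.03 in DA3 alone and at 7.06 and 6.64 in DA3 co-culture (-1.20 ± 0.28, adjusted p = 0.194, limma). Col7a1, the collagen of anchoring fibrils, was at 7.72 and 5.78 in DA3 co-culture against 5.61 and 5.24 in DA3 alone, so array 1 alone stood far above the controls. All 4 were picked with their values in view.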
